A study of Macaca mulatta with 4 samples.

Results

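Excitatory neurons of the pyramidal type were followed through 9 of their marker genes in the amygdala of infant rhesus macaques (Macaca mulatta) after repeated sevoflurane anaesthesia. The 9 genes were SLC17A7, SLC17A6, NRGN, CAMK2A, TBR1, NEUROD2, NEUROD6, ETV1 and RORB, chosen by symbol with earlier results of these data known. Each matched exactly 1 of the 35395 Ensembl gene IDs in the deposited table, and all 9 were among the 15417 genes with enough reads to be tested. The 4 libraries were labelled as 1 control female, 1 control male, 1 sevoflurane female and 1 sevoflurane male, all wild type. Per the labels, treated animals inhaled 2.5 to 3% sevoflurane, a volatile general anaesthetic, on 3 occasions of 4 hours each, near postnatal days 7, 21 and 35, and the amygdala was collected straight after the last. The controls' breathing gas and age remain not given in the sources used here, as does whether tissue was pooled.

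The basolateral amygdala is built largely of glutamatergic projection neurons that resemble the pyramidal cells of the cortex. Such neurons load glutamate into synaptic vesicles through the vesicular transporters encoded by SLC17A7 (VGLUT1) and SLC17A6 (VGLUT2), and they carry abundant calmodulin-dependent signalling proteins in their dendritic spines. Their identity is set during development by transcription factors shared with the cortex, among them TBR1 and the NEUROD family. VGLUT1 is typical of cortex, hippocampus and basolateral amygdala, whereas VGLUT2 is typical of thalamus, hypothalamus and brainstem and is also found in parts of the amygdala.

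The libraries held 12477047 to 16293371 reads on genes, and the control male library stood apart in its tissue markers. TTR, which encodes transthyretin and marks choroid plexus, stood at 17580 CPM (read counts scaled to a common library size, with TMM factors) there and at 2.34 to 23.3 CPM in the other libraries. The summed level of 12 striatal-type and intercalated neuron markers was 2539 CPM in the control male library, 453 CPM in the control female and 361 and 402 CPM in the sevoflurane libraries. The 12 matched oligodendrocyte markers summed to 6952 CPM in that library, 1742 CPM in the control female, and 3276 and 4243 CPM after sevoflurane. Pan-neuronal markers differed less in their sum, which was 17039 and 16197 CPM in controls and 13875 and 14846 CPM after sevoflurane. Single markers of that list moved in both directions, with 4 called higher and 4 lower between conditions. In whole tissue, fewer cells of a type and less of an RNA per cell cannot be told apart. The labels name no batch, so handling that differed between the conditions could not be told apart from sevoflurane.

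The main comparison asked whether these genes differed between the sevoflurane and control libraries. NRGN fell and ETV1 and RORB rose, while the other 6 genes were not called (edgeR's quasi-likelihood test, adjusted p under 0.05). That is 3 of 9, beside 40.7% of all tested genes, of which 21.3% were higher and 19.4% lower. The median log2 fold change of the 9 genes was 0.57, beside 0.0040 over all tested genes. The change had the same sign in the female and the male pair of libraries for 9 of 9 genes, beside 85.3% of all tested genes. For 7 of the 9 the sevoflurane and control libraries did not overlap, 4 higher and 3 lower, beside 75% of all tested genes. The share without overlap was near that of the whole table.

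**Figure D1:**
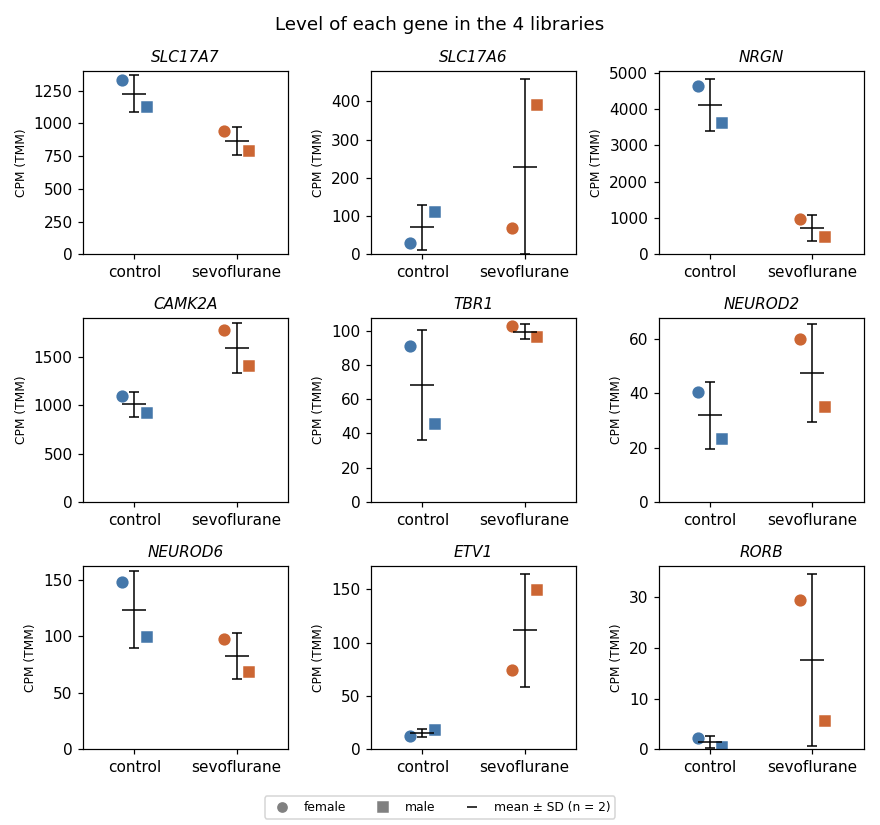
Level of each of the 9 genes in CPM with TMM scaling (vertical axes, linear from 0) in the control and sevoflurane libraries. Circles are females, squares are males, and bars are the mean ± SD of 2 libraries. NRGN falls from 4616 and 3604 CPM in controls to 985 and 485 CPM, and the male symbol of SLC17A6 lies above the female one in both conditions.

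Among the vesicular transporters, SLC17A7 (ENSMMUG00000014800) varied little and SLC17A6 (ENSMMUG00000020368) varied widely. SLC17A7 stood at 1330 CPM in the female and 1127 CPM in the male control, and at 943 CPM in the female and 792 CPM in the male given sevoflurane. Both sevoflurane libraries were below both controls, and the means were 1228 ± 143 and 867 ± 107 CPM (SD, n = 2). The log2 fold change was −0.50 ± 0.27 (SE), which was not called (edgeR adjusted p = 0.181). It was nearly the same in females (−0.50) and in males (−0.51).

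SLC17A6 was at 29.2 CPM in the female and 111 CPM in the male control, and at 68.2 CPM in the female and 390 CPM in the male given sevoflurane. The groups overlapped, because the control male library lay above the sevoflurane female one. The log2 fold change between conditions was 1.71 ± 0.90 and was not called (edgeR adjusted p = 0.171, and 2.07e-06 to 0.976 over its alternatives). The value moved when 1 library was left out, which also left the sexes unequal between the conditions. Leaving out the treated male gave −0.04, the female control 1.07, the treated female 2.49 and the male control 2.95. Within a sex it was 1.22 in females and 1.81 in males. With sex as a term in the model, SLC17A6 was called higher after sevoflurane (1.52 ± 0.30, edgeR adjusted p = 0.000608), as it was with no filter on low counts (1.75).

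The balance of the 2 transporters was read within each library, where scaling between libraries plays no part. For each read of SLC17A6 there were 45.5 reads of SLC17A7 in the female and 10.1 in the male control, and 13.8 in the female and 2.03 in the male given sevoflurane. The ratio is of reads, not of molecules, since gene length was not taken into account. On the log2 scale the mean was 4.42 ± 1.53 in controls and 2.41 ± 1.96 after sevoflurane (SD, n = 2). The male control lay below the female given sevoflurane, so the groups overlapped. In each sex the ratio was lower after sevoflurane, and in each condition it was lower in the male. The difference of −2.02 became −0.63 with the treated male left out, −0.93 with the female control, −3.10 with the male control and −3.40 with the treated female. An exact two-sided permutation test of 2 against 2 libraries cannot give a p under 0.33, here or for the ratios that follow.

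**Figure D2:**
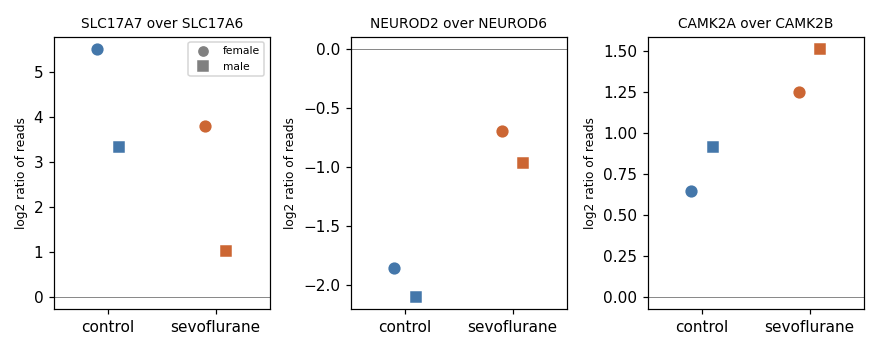
Log2 ratio of the reads of 2 genes within each library (vertical axes) for SLC17A7 over SLC17A6, NEUROD2 over NEUROD6 and CAMK2A over CAMK2B. Circles are females and squares are males. Conditions overlap for the transporters and do not overlap for the other pairs.

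Of the calmodulin-signalling genes, NRGN was called and CAMK2A was not. NRGN (ENSMMUG00000008481) encodes neurogranin, a small postsynaptic protein that binds calcium-free calmodulin. It stood at 4616 CPM in the female and 3604 CPM in the male control, and at 985 CPM in the female and 485 CPM in the male given sevoflurane. Both sevoflurane libraries were far below both controls, with 70764 and 40576 reads in controls against 15561 and 7060. NRGN fell by 2.48 on the log2 scale (SE 0.43, edgeR adjusted p = 0.00656), from 4110 ± 716 to 735 ± 354 CPM. The fall was 4.69-fold in females and 7.43-fold in males. It was called in each of the 13 alternatives, with log2 fold changes between −3.13 and −2.06, and at −3.07 with the treated female left out.

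CAMK2A (ENSMMUG00000011563) encodes the alpha subunit of calcium/calmodulin-dependent kinase II, the main kinase of excitatory spines. It was at 1102 CPM in the female and 918 CPM in the male control, and at 1778 CPM in the female and 1410 CPM in the male given sevoflurane. Both sevoflurane libraries were above both controls, and the log2 fold change of 0.66 ± 0.29 was not called (edgeR adjusted p = 0.109). The difference was 0.69 in females and 0.62 in males. CAMK2B, the beta subunit, had a log2 fold change of 0.06 ± 0.33 (adjusted p = 0.893). The log2 ratio of CAMK2A over CAMK2B reads was 0.65 and 0.92 in the control female and male and 1.25 and 1.51 in the sevoflurane female and male. The groups did not overlap, as was so for 75% of all tested single genes. Their difference was 0.60, and the SD of the 2 libraries within either was 0.19.

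Of the transcription factors, the neuronal identity genes TBR1, NEUROD2 and NEUROD6 were not called, and ETV1 and RORB were. TBR1 (ENSMMUG00000011911), a T-box factor of glutamatergic neurons, was at 91.0 CPM in the female and 45.7 CPM in the male control, and at 102 CPM in the female and 96.2 CPM in the male given sevoflurane. The control male library was the low one, and the other 3 lay close together. The log2 fold change was 0.54 ± 0.36 (edgeR adjusted p = 0.272). Leaving out the male control gave 0.10 and leaving out the female control 1.14, neither of them called.

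NEUROD2 and NEUROD6 are related basic helix-loop-helix factors that are kept on in mature pyramidal neurons. NEUROD2 (ENSMMUG00000001404) was at 40.6 CPM in the female and 23.1 CPM in the male control, and at 60.1 CPM in the female and 34.8 CPM in the male given sevoflurane. The groups overlapped, and within each sex the sevoflurane library was higher. The log2 fold change was 0.57 ± 0.41 (edgeR adjusted p = 0.30). Leaving out the treated female gave 0.14, the male control 0.19, the treated male 0.92 and the female control 1.06, none of them called.

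NEUROD6 (ENSMMUG00000022699) had a difference of the opposite sign, which was not called. It was at 147 CPM in the female and 99.3 CPM in the male control, and at 97.2 CPM in the female and 68.1 CPM in the male given sevoflurane. The highest sevoflurane library lay just under the lowest control, and the log2 fold change was −0.58 ± 0.32 (edgeR adjusted p = 0.187). Leaving out the female control gave −0.24, the treated male −0.34, the treated female −0.85 and the male control −0.87, none of them called. The log2 ratio of NEUROD2 over NEUROD6 reads was −1.86 and −2.10 in the control female and male and −0.69 and −0.97 in the sevoflurane female and male. The groups were apart by 1.15, against an SD of 0.17 in controls and 0.20 after sevoflurane, and by 1.01 to 1.29 without any 1 library. Neither gene was called alone, and the ratio between them separated the conditions. Of all tested single genes 75% also did so, and the share among ratios of other gene pairs was not computed.

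ETV1 (ENSMMUG00000039167), an ETS-family factor found in deep-layer cortical neurons, was at 12.7 CPM in the female and 18.0 CPM in the male control, and at 74.2 CPM in the female and 149 CPM in the male given sevoflurane. Both sevoflurane libraries were well above both controls. ETV1 rose by 2.86 ± 0.42 on the log2 scale (edgeR adjusted p = 0.00434, higher in both sexes), from 15.4 ± 3.76 to 112 ± 52.9 CPM. The rise was called in each of the 13 alternatives, with values between 2.19 and 3.29.

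RORB (ENSMMUG00000012571), a nuclear receptor known for marking layer 4 of the cortex, had few reads in controls. It was at 2.22 CPM in the control female (34 reads, 95% Poisson interval 1.54 to 3.10) and 0.533 CPM in the control male library (6 reads, 0.196 to 1.16). It was at 29.5 CPM in the sevoflurane female (466 reads, 26.9 to 32.3) and 5.56 CPM in the sevoflurane male library (81 reads, 4.42 to 6.91). These intervals cover counting error only. Both sevoflurane libraries were above both controls, and the female was above the male in each condition. RORB rose by 3.63 ± 1.0 on the log2 scale (edgeR adjusted p = 0.0298, and 6.94e-09 to 0.199 over its alternatives). The call was lost without the sevoflurane female library (2.00), and the value was 5.03 without the control female, 4.39 with the treated male and 2.94 with the male control left out. It was also lost in a test for a change of more than 2-fold (adjusted p = 0.0634).

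**Figure D3:**
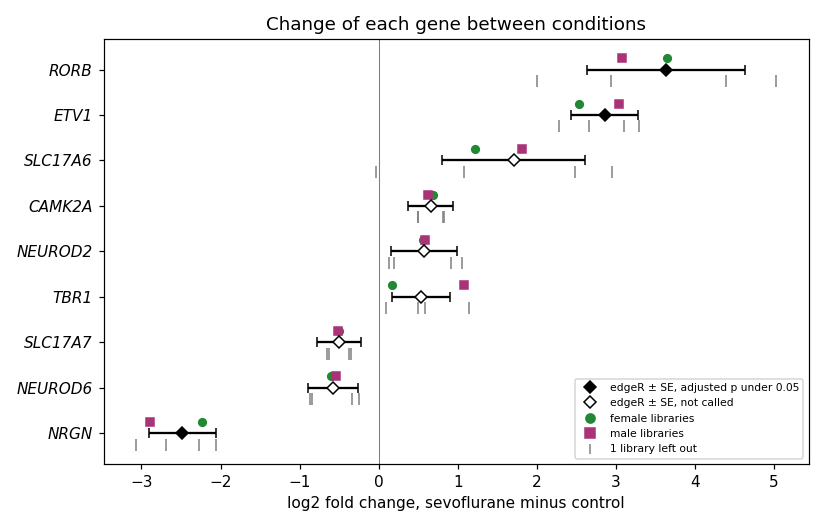
Log2 fold change of sevoflurane over control for each of the 9 genes (horizontal axis, genes ordered by value). Diamonds with bars are edgeR estimates ± SE, filled where called; circles and squares are the change within females and males, and grey ticks are the estimates with 1 library left out. NRGN lies at −2.48, ETV1 at 2.86 and RORB at 3.63, and the ticks of SLC17A6 run from −0.04 to 2.95.

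The difference between the sexes was tested with condition in the model, which leaves 1 residual degree of freedom. With 1 library per sex and condition, sex, animal and the exact tissue taken cannot be told apart. SLC17A6 was higher and RORB lower in the male libraries, and the other 7 genes were not called. That is 2 of 9, beside 1.84% of all tested genes. These values were known when the 9 genes were chosen, so the count is a description.

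SLC17A6 was higher in males by 2.23 ± 0.31 on the log2 scale (edgeR adjusted p = 0.000799), 3.80-fold in controls and 5.71-fold after sevoflurane. RORB was lower in males by 2.27 on that scale (SE 0.51, edgeR adjusted p = 0.0296), 3.50-fold in controls and 5.20-fold after sevoflurane. Both calls were made in each of the 6 alternative scalings, filters and tests. Of the 9 genes, 7 were lower in the male library in both conditions and 2, SLC17A6 and ETV1, were higher in both. Over all tested genes 29% were lower and 26.4% higher in the male in both conditions. For NRGN the difference between sexes was −0.69 ± 0.32 and for NEUROD2 −0.80 ± 0.31, and neither was called (edgeR adjusted p = 0.458 and 0.310). For SLC17A7 it was −0.24 ± 0.30 (adjusted p = 0.903).

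Other cortical-type transcription factors also separated the male from the female libraries. Of 35 tested in that list, 7 were lower in males and 0 higher, beside 1.04% and 0.798% of all tested genes. Of these, 5 are named here, after their values were seen. CUX2, a factor of upper cortical layers, was at 28.1 and 107 CPM in the control and sevoflurane female and at 12.3 and 13.7 CPM in the males. BCL11A, ID2, NR4A2 and NFIX differed by −1.92, −2.12, −2.48 and −2.07 log2. These 5 factors were lower in the male of each condition, as RORB was.

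Some genes of the other marker lists also differed between the male and female libraries. Of 9 tested hippocampal and thalamic neuron markers, 3 were higher in males and 0 lower, beside 0.798% and 1.04% of all tested genes. These were LHX9, CALB2 and PRKCD, named after their values were seen. Others of that list were not called, among them TCF7L2 (0.03 log2), PROX1 (−0.21) and WFS1 (−0.55). LHX9, a factor of thalamic and other forebrain neurons, had 0 reads in both female libraries and 41 in the males, at least 7.77-fold higher against a floor of 3 reads per library (0.193 CPM). CALB2, the calretinin gene, is also in the inhibitory neuron list. It was at 201 and 74.0 CPM in the control and sevoflurane female and 897 and 357 CPM in the males. Of 12 oligodendrocyte markers 4 were higher in males and 0 lower. The part of these listed markers in the differences of SLC17A6 and RORB was not tested.

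**Figure D4:**
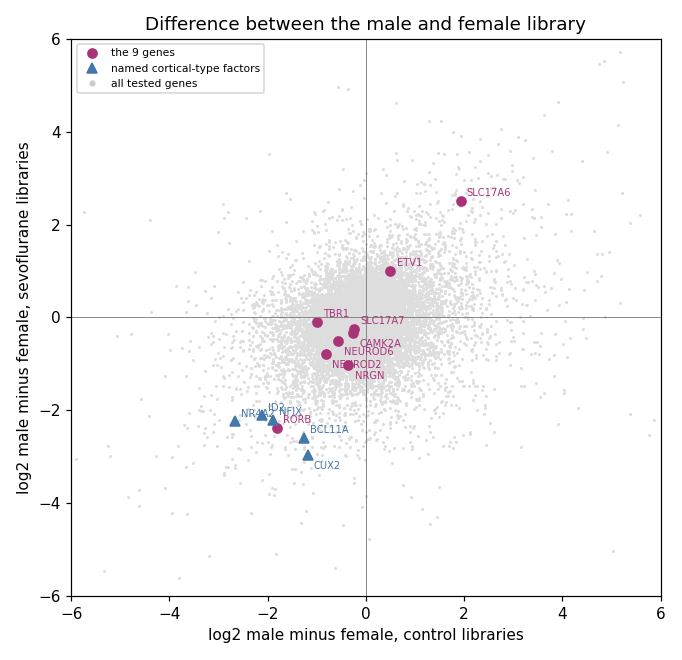
Log2 difference of the male minus the female library in controls (horizontal axis) and after sevoflurane (vertical axis) for the 9 genes, 5 of the other cortical-type factors called between the sexes, and all tested genes in grey; genes beyond the axes are not shown. SLC17A6 lies at 1.93 and 2.51, RORB at −1.81 and −2.38, and the 5 marked factors lie in the lower left with RORB.

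The wider glutamate pathway was read from 13 genes of glutamate synthesis and transport. Between conditions 5 were called higher and 1 lower, 46.2% beside 40.7% of all tested genes, with a median log2 fold change of 0.16. SLC1A2, SLC1A3 and GLUL of this list are also in the astrocyte list. SLC1A2, the astrocytic glutamate transporter, rose by 4.30 ± 0.41 (edgeR, log2). SLC25A22, a mitochondrial glutamate carrier, fell by 1.68 (SE 0.26). SLC17A8, the third vesicular glutamate transporter, had 9 to 52 reads per library and was not called (−1.70 ± 1.03). Leaving out the female control gave −2.52, which was called, and the male control 0.38. The number called higher was 3 without either the control male or the sevoflurane male library, and 2 were called lower without the control female.

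Calmodulin and its targets were called in both directions. Of 21 genes, 5 were called higher and 4 lower, 42.9% beside 40.7% of all tested genes, with a median of −0.35. PPP3R1, the regulatory subunit of the calmodulin-activated phosphatase calcineurin, rose by 4.42 ± 0.46 (5.09 with the female control left out), and CAMKK2, a kinase upstream of other calmodulin-dependent kinases, rose by 2.36 ± 0.39. The falls of largest size were those of PCP4 (−3.56 ± 0.97), a small protein that binds calmodulin, and CALY (−3.28 ± 0.36), a neuronal vesicle protein that is not a classical calmodulin target. PCP4 was at 82.5 CPM in the female and 755 CPM in the male control, and at 43.9 CPM in the female and 27.2 CPM in the male given sevoflurane. Its log2 fold change was −1.25 without the control male library, and its call was lost without either sevoflurane library.

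Of the genes that encode calmodulin, CALM2 (−0.35 ± 0.29) and CALM3 (−0.68 ± 0.30) were not called. GAP43, which binds calmodulin through an IQ motif as neurogranin does, fell by 1.25 (SE 0.34, adjusted p = 0.0289). GAP43 was no longer called with library totals (−1.02), or if the male control (−0.94) or the female given sevoflurane (−1.0) was left out. GAP43 was named after its values were seen. The calmodulin genes called higher were 2 in number without the sevoflurane male library, and those called lower were 2 without the sevoflurane female. With library totals 8 were called higher and 3 lower, and with libraries scaled on pan-neuronal genes 2 and 10. CALM2 (−1.0) and CALM3 (−1.33) were called lower with that scaling, and CALM3 also by DESeq2 (−0.67).

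The cortical-type transcription factors other than the 9 genes were mostly not called between conditions. Of 35 tested, 8 were called higher, 1 lower and 26 neither, 25.7% beside 40.7% of all tested genes, with a median of 0.62. FOXP2, a forkhead factor that is also in the striatal-type list, had 1 read in controls and 270 after sevoflurane, a ratio of 236 (95% counting interval 42.1 to 9370). Leaving out the treated female gave 63.9 (10.7 to 2600), the treated male 395 (70.3 to 15700) and the male control 136 (24.3 to 5400), and leaving out the female control gave at least 32.4-fold. RORA, the paralogue of RORB, had 2 reads in controls and 110 after sevoflurane, a ratio of 48.2 (13 to 403). Leaving out the female control gave 20.4 (5.51 to 171), and leaving out the male control at least 18.5-fold. FEZF2, a factor of neurons that project below the cortex, fell by 1.42 (SE 0.46, edgeR adjusted p = 0.0486). FEZF2 was not called with library totals (−1.20), nor when the male control (−1.25) or the treated female (−0.91) was left out, and it stood at −2.19 with the treated male left out.

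The number of these factors called higher depended on single libraries. Leaving out the female control gave 16 higher and 2 lower, the male control 8 and 4, and the treated female 5 and 1. With library totals 11 were called higher and 0 lower, by DESeq2 13 and 2, with sex as a term 16 and 5, and with scaling on pan-neuronal genes 6 and 6.

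Other pyramidal neuron markers were split in both directions. Of 22 tested, 6 were called higher, 4 lower and 12 neither, 45.5% beside 40.7% of all tested genes, with a median of 0.54. RASGRF2, a calcium-regulated exchange factor of upper-layer neurons, rose by 4.27 ± 0.41 and PHACTR1, an actin and phosphatase regulator, by 3.73 ± 0.31. The peptide genes GRP and CCK, both expressed in pyramidal cells of the amygdala and cortex, fell by 2.14 (SE 0.33) and 2.02 (SE 0.30). CCK was at 408 CPM in the female and 269 CPM in the male control, and at 81.5 CPM in the female and 84.7 CPM in the male given sevoflurane. Without the control female library 10 of these markers were called higher.

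**Figure D5:**
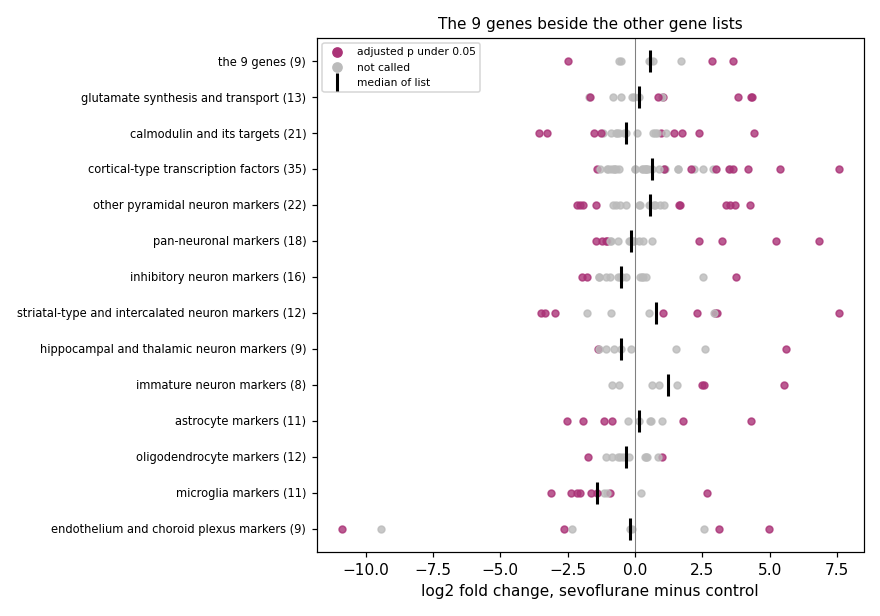
Log2 fold change of sevoflurane over control (horizontal axis) for each tested gene of the 9 and of the other lists, with the number tested in brackets. Coloured points were called, grey points were not, black ticks are list medians and the vertical line is the median of all tested genes. The medians of the 9 genes (0.57), the cortical-type factors (0.62) and the other pyramidal markers (0.54) lie close together, with members called in both directions.

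Markers of other neurons and of all neurons were also divided. Of 18 pan-neuronal markers, 4 were called higher and 4 lower, 44.4% beside 40.7% of all tested genes, with a median of −0.14. MAP2, a dendritic microtubule protein, rose by 6.82 ± 0.50, and TUBB3, the neuronal beta tubulin, fell by 1.46 (SE 0.29). Of 16 inhibitory neuron markers, 1 was called higher and 2 lower, 18.8%, with a median of −0.54. RELN, a secreted glycoprotein, rose by 3.75 ± 0.74, and SST, the somatostatin gene, fell by 1.98 (SE 0.39). RELN was at 4.91 with the female control, 3.09 with the male control and 2.82 with the treated female left out, and SST at −2.57 with the treated female left out. GAD1 and GAD2, the enzymes that make GABA, were at 0.30 ± 0.31 and 0.39 ± 0.26 and were not called. With the female control left out 3 inhibitory markers were higher and 4 lower, and with the treated male left out 2 pan-neuronal markers were lower.

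The lists of other cells held between 16.7% and 72.7% called genes, beside 40.7% of all tested genes. Of 12 striatal-type and intercalated markers, 5 were called higher and 3 lower, with a median of 0.79, and RGS9 (−3.47 ± 1.13) was at −0.46 with the male control left out. RGS9 was also not called with library totals, or with either treated library left out. Of 9 hippocampal and thalamic markers 1 was called higher and 1 lower (median −0.51), and of 8 immature neuron markers 3 higher and 0 lower (median 1.22). Of 11 astrocyte markers 2 were higher and 4 lower (median 0.16), of 12 oligodendrocyte markers 1 higher and 1 lower (−0.33), of 11 microglial markers 1 higher and 7 lower (−1.42), and of 9 endothelial and choroid plexus markers 2 higher and 2 lower (−0.20). Leaving out the male control gave 1 striatal-type marker lower, 2 hippocampal and thalamic ones higher and 3 oligodendrocyte ones higher. Leaving out the female control gave 3 striatal-type markers higher, 2 hippocampal and thalamic ones lower, 2 astrocyte ones lower, 0 oligodendrocyte ones higher and 3 lower, and 5 of endothelium and choroid plexus lower. Leaving out either treated library gave 2 striatal-type markers higher, 2 astrocyte ones lower and 0 microglial ones higher, and 1 higher and 1 lower of endothelium and choroid plexus. With the treated male left out 0 striatal-type, 0 hippocampal and thalamic markers were lower and 0 oligodendrocyte ones higher, and with the treated female left out 1 striatal-type marker was lower, 0 hippocampal and thalamic ones were higher and 1 immature one was lower. KCNJ13, a choroid plexus channel, was at 0 reads in both sevoflurane libraries. Of 81 gene IDs of cytosolic ribosomal proteins, whose messenger RNAs are short, 69 were called lower and 0 higher. That was 85.2%, beside 40.7% of all tested genes, with a median of −1.79. The part of these lists in the changes of NRGN, ETV1 and RORB was not tested.

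Scaling the libraries on neuronal genes lowered all 9 values. In place of TMM, the geometric mean of the 18 pan-neuronal markers was used, a choice made after seeing the data, and it moved the median of all tested genes to −0.65. Of all called genes 28.5% were then higher, against 52.3% with TMM. Higher and lower calls were 3 and 4 among the glutamate genes, 5 and 7 among other pyramidal markers, and 1 and 5 among inhibitory markers. SLC17A7 (−1.15 ± 0.29, edgeR adjusted p = 0.0144) and NEUROD6 (−1.22 ± 0.31, adjusted p = 0.0156) were then called lower, as NRGN was (−3.13). The calls were then 5 of 9, beside 48.5% of all tested genes. ETV1 (2.19) and RORB (3.03) were still called higher. CAMK2A (0.01), TBR1 (−0.09) and NEUROD2 (−0.06) lay near 0. That list holds MAP2 and SYT1, at 6.82 and 5.24 log2 with TMM. With library totals in place of TMM the median of all genes was 0.24, and the same 3 of the 9 genes were called in the same directions, beside 40.1% of all tested genes. Of all called genes 63.3% were then higher.

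The 9 genes did not share 1 pattern over the 4 libraries. Likeness was measured as the Euclidean distance between log2 CPM values centred on each gene's mean, over 4 libraries, as a description without a test. SLC17A7 and NEUROD6 were the closest pair (0.31), followed by CAMK2A with NEUROD2 (0.51), NEUROD2 with TBR1 (0.51) and CAMK2A with TBR1 (0.54). NRGN and RORB were the farthest apart (6.09). SLC17A6 lay nearest to ETV1 (1.94), the other gene that was higher in both male libraries.

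For each pattern the 2 nearest other genes were then taken, from 282 to 8157 candidates of similar level. They were picked on the same library values that were tested, so their closeness and their like calls follow from that choice. Among genes of similar level, SV2A (0.08) and TBC1D24 (0.09) were nearest to SLC17A7, CERS1 (0.08) and PPP5C (0.08) to NEUROD6, and HECW1 (0.09) and ZNF250 (0.09) to NEUROD2. GNAO1 (0.12) and CHD3 (0.17) were nearest to CAMK2A, and PAQR8 (0.13) and MEIS2 (0.19) to TBR1. CKB (0.29) and TTYH1 (0.44) were nearest to NRGN, and both were called lower (−2.25 and −2.09 log2). GUCY1A1 (0.40) and ADAMTS3 (0.54) were nearest to SLC17A6. GUCY1A1 was at 23.5 CPM in the female and 131 CPM in the male control, and at 61.1 CPM in the female and 377 CPM in the male given sevoflurane. HSDL2 (0.27) and EPHA6 (0.30) were nearest to ETV1, and ABI3BP (0.46) and NECTIN1 (0.51) to RORB, and all 4 were called higher.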

How the data were processed

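The authors deposited raw read counts per Ensembl macaque gene, with 1 column per library and no normalization. Reads were aligned with HISAT2, per the submitters' processing notes; its version, the counting program, strandedness, genome build and annotation remain not given in the sources used here, so no positions or sequences are printed. Symbols came from a table of gene IDs that named 24173 of 35395. Groups and sex came from the labels. The labels do not state that libraries are separate animals beyond sex, so p-values measure the spread between these libraries, which may in part be technical.

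Genes were kept by filterByExpr (minimum count 10), scaled by TMM and tested with edgeR 4.0.16 (quasi-likelihood F-test, 2 residual degrees of freedom, Benjamini-Hochberg over 15417 genes, threshold 0.05); standard errors came from the F statistic. Within-sex and per-library log2 values used a prior count of 2. Alternatives used DESeq2 1.42.0, limma 3.58.1, other scalings, filters, a sex term, and 1 library left out. The procedure was run on simulated counts with the same dispersion for every gene and no difference between sexes or tissues. That run does not show how it performs at the spread of these libraries. The 9 genes and all lists were chosen with earlier results of these data known. In the other lists the 1 or 2 called genes of largest rise and fall were named, some listed genes being counted but not reported by name here; glial and vascular lists are given as counts. List medians were the same with genes of 3 or fewer reads in a condition set at their counting ratio or bound. Of the listed symbols, POU3F3, ADORA2A, CD24, MAG, OLIG1 and AQP1 matched no ID.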

Additional observations from a re-analysis of the deposited data

How the results depend on the processing

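Counts of called genes kept within 1.5 times of the reported value except as follows. All genes called between conditions numbered 6278, with 3469 to 5800 when 1 library was left out and 3030 for a change of more than 2-fold, a test added after seeing the data. Of the 9 genes, 2 were called higher, with 1 to 3 when 1 library was left out and 1 for a change of more than 2-fold. The number called lower was 1 with every library left out in turn, and 3 with pan-neuronal scaling. SLC17A6 ranged from −0.037 (treated male left out) to 2.95 when 1 library was left out, and TBR1 and NEUROD2 were at −0.087 and −0.059 with pan-neuronal scaling; the cause was not tested. A lone library in a condition is assumed to vary like the others. The 2 calls between the sexes held in the 6 alternatives, and 7 to 10 cortical-type factors were lower in males there. The log2 ratio of SLC17A7 over SLC17A6 differed by −3.40 to −0.63, of NEUROD2 over NEUROD6 by 1.01 to 1.29 and of CAMK2A over CAMK2B by 0.46 to 0.73 when 1 library was left out. Of 338 values of counts in the other lists, 241 stayed within 1.5 times, 45 were lower and 52 higher. Depth limits RORB in controls (34 and 6 reads). The labels carry no replicate numbers, and libraries can be paired by sex only. In the fit paired by sex, with sex as a term and 1 residual degree of freedom, 7825 genes were called, 3 of the 9 genes higher and 1 lower.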
